A study of Drosophila melanogaster with 136 samples.

Results

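Small RNAs of Drosophila melanogaster embryos collected at 8-12 h were compared between mutants of Dora and wild type. The comparison holds 8 of the 136 libraries of the series, namely 2 of genotype dora[A], 2 of genotype dora[B], 2 wild-type (WT) controls of dora[A] and 2 WT controls of dora[B]. It therefore sets 4 dora libraries against 4 WT libraries, with each allele beside its own controls, and only fly miRNAs were used. Replicates are at least 2 fly lines per dataset by the series' design text, so the p-values measure the spread between these lines and collections. The molecular lesion of each allele, the genotype of the mothers and whether a control shares the background of its mutant are not stated in the labels.

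Dora is the fly ortholog of ZSWIM8, the protein through which a cullin-type ubiquitin ligase recognises its substrate. In target-directed miRNA degradation, a transcript with unusually extensive complementarity to a miRNA (a trigger) exposes the Argonaute protein that carries it, the ligase marks that protein for destruction, and the miRNA is lost with it. The passenger strand of the same hairpin, which is not loaded, is spared, so the ratio of guide to passenger reads out the loss of the mature guide. In the fly embryo the windows studied here cover the hours in which the first zygotic miRNAs give way to those of differentiating tissues.

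The libraries held 0.274 to 1.41 M miRNA counts, the lowest in dora[B] replicate 1. Between 25.8% and 70.4% of the counts in a library belonged to added RNA standards and size markers, which were set aside. Of 310 miRNA arms (the 5p or 3p strand of a hairpin), 202 passed the filter on low counts and were tested. The other 108 reached at most 26.9 CPM (counts scaled to a common library size) in any library, and the arms tested held at least 99.98% of the miRNA counts of every library. The biological coefficient of variation was 27.1%. Levels are given as CPM after TMM scaling. Changes are log2 fold changes of dora over WT, with their standard error (SE), from edgeR's quasi-likelihood test with the allele set as a block. An arm was called at a Benjamini-Hochberg adjusted p under 0.05 over all 202 arms. These are bulk embryos, in which fewer cells of a type and less RNA per cell cannot be told apart.

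At this age 13 miRNA arms rose and 2 fell in dora embryos. The calls were 7.43% of the arms tested, 6.44% higher and 0.99% lower, and 32 arms had an unadjusted p under 0.05. The median log2 fold change over all arms tested was -0.01. The 13 arms that rose came from the miR-309 cluster of early zygotic miRNAs (miR-309-3p and miR-3-3p), from the miR-310 cluster (miR-310-3p, miR-311-3p, miR-312-3p and both arms of miR-313), from its seed mates miR-92a-3p and miR-92b-3p, and from miR-33-5p, miR-1012-3p, miR-275-3p and miR-986-5p. Together they made up 8.20% and 5.53% of all miRNA counts in dora[A] and 11.7% and 9.57% in dora[B] embryos, against 3.99% and 3.98% in the WT embryos of dora[A] and 4.00% and 4.41% in those of dora[B]. In every one of the 15 called arms both dora libraries lay on the same side of both WT libraries within each allele set. In 14 of them all 4 dora libraries lay apart from all 4 WT libraries, the exception being miR-986-5p. Over all arms tested, 13.9% stood higher and 5.45% lower without overlap within both sets, and 14.4% stood apart 4 against 4. DESeq2 called 25 arms, 21 higher and 4 lower, all 15 among them. Scaling to the added standards gave 0 calls with edgeR and none at an unadjusted p under 0.05. Adding the replicate pair to that scaling (a fit chosen after seeing the data) gave 11 higher and 3 lower. Of the 15 calls, 12 were among them, and miR-986-5p, miR-275-3p and miR-92a-3p were not. The number of miRNA counts per count of standards was 41.1 and 6.00 in dora[A] and 12.8 and 3.54 in dora[B], against 36.4 and 4.86 in the WT embryos of dora[A] and 18.3 and 4.84 in those of dora[B]. It differed between replicates more than between genotypes.

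**Figure D1:**
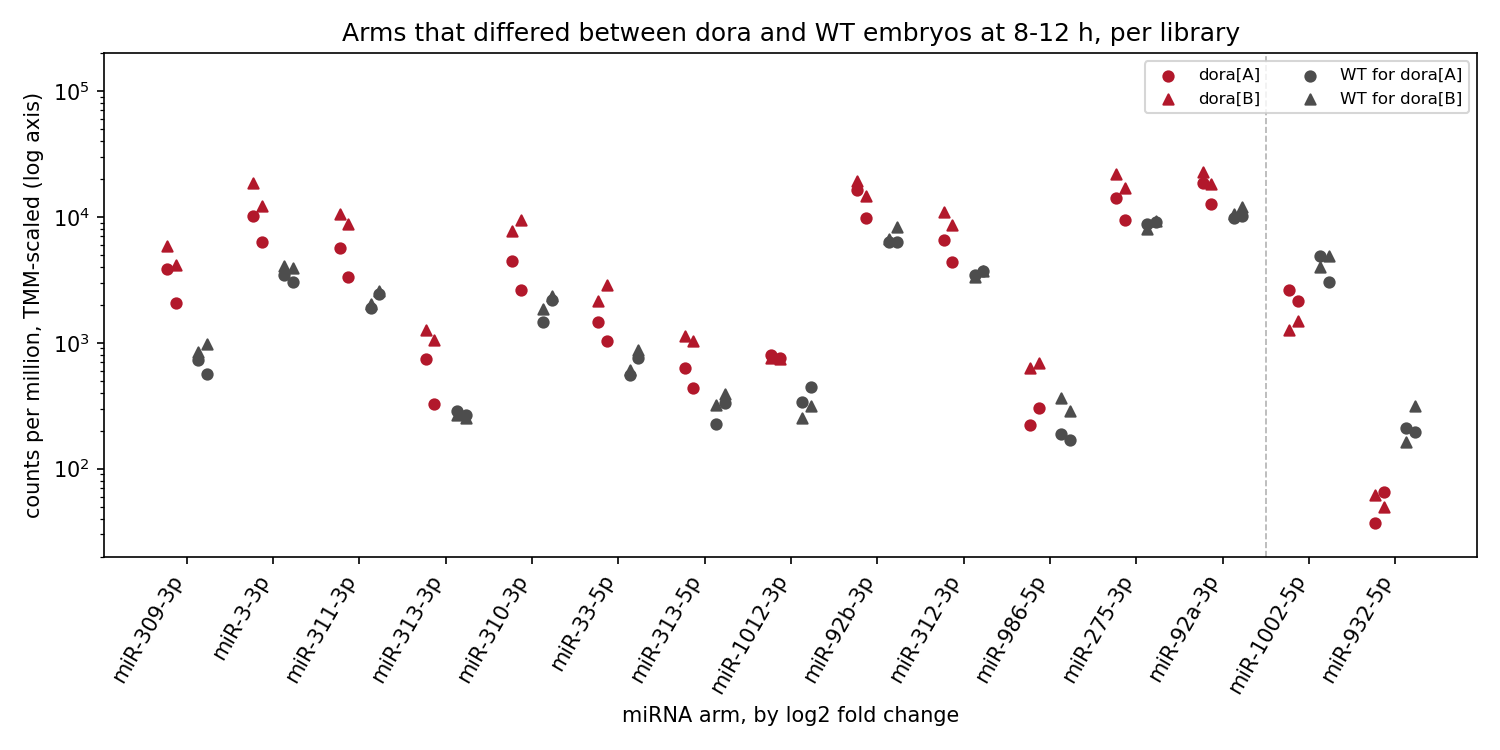
Level of the 15 called arms in each library at 8-12 h, in TMM-scaled CPM on a log axis, ordered by log2 fold change, with dora embryos in red to the left of WT embryos in grey and the allele sets as circles and triangles. The 13 arms left of the dashed line were higher in dora, and miR-1002-5p and miR-932-5p were lower; only miR-986-5p overlaps between the genotypes.

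The miR-309 cluster is transcribed at the onset of zygotic transcription and its miRNAs take part in clearing maternal mRNAs. On the dm6 build mir-309 (2R:19661706-19661774) and mir-3 (2R:19661595-19661663) lie within the lncRNA gene CR44504. The largest increase of all called arms was that of miR-309-3p, which stood at 3871 and 2070.3 CPM in dora[A] and 5878 and 4137 CPM in dora[B] embryos, against 725 and 561 CPM in the WT embryos of dora[A] and 846 and 968 CPM in those of dora[B] (log2 fold change 2.33, SE 0.23, edgeR adjusted p = 0.000474). The lowest dora library was more than 2-fold above the highest WT library. The level of miR-3-3p was 10087 and 6321 CPM in dora[A] and 18409 and 12275 CPM in dora[B] embryos, against 3443 and 3025 CPM in the WT embryos of dora[A] and 4041 and 3936 CPM in those of dora[B] (log2 fold change 1.64, SE 0.20, edgeR adjusted p = 0.0019). For both arms the dora[B] libraries were the highest, the dora[A] libraries came next, and every WT library lay below them.

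The other members of the cluster did not pass the test. Of 12 arms of the cluster tested, 2 rose and 0 fell, with a median log2 fold change of 0.04 (range -0.72 to 2.33), and 4 had an unadjusted p under 0.05. The most abundant arm of these libraries, the K-box miRNA miR-6-3p made from 3 gene copies, averaged 128101 ± 6002 CPM in dora and 142523 ± 14129.9 CPM in WT embryos (SD, n = 4 each), with a log2 fold change of -0.15 (SE 0.06, edgeR adjusted p = 0.193). The level of miR-286-3p averaged 38184 ± 6413 CPM in dora and 36579.8 ± 3943 CPM in WT embryos (SD, n = 4 each), with a log2 fold change of 0.06 (SE 0.13, edgeR adjusted p = 0.801). The level of miR-4-3p averaged 33943 ± 4208 CPM in dora and 33639.6 ± 1936 CPM in WT embryos (SD, n = 4 each), with a log2 fold change of 0.01 (SE 0.10, edgeR adjusted p = 0.969). For miR-5-3p the fit gave -0.18 (SE 0.09) and miR-5-5p -0.02 (SE 0.12). These hairpins come from the same stretch of the genome as miR-309 and miR-3, and their log2 fold changes have SEs under 0.15, below the size of the changes of miR-309-3p and miR-3-3p. For miR-4-5p the fit gave 0.58 (SE 0.18, edgeR adjusted p = 0.111) and passed with DESeq2 (adjusted p = 0.0333). The host transcript CR44504 had 0 counts in all 8 poly(A) libraries, so its level could not be compared.

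The passenger strands of the raised members did not pass the test. The level of miR-309-5p was 161 and 119 CPM in dora[A] and 84.5 and 462 CPM in dora[B] embryos, against 122 and 159 CPM in the WT embryos of dora[A] and 178 and 146 CPM in those of dora[B] (log2 fold change 0.40, SE 0.43, edgeR adjusted p = 0.656). Only dora[B] replicate 2 lay above the WT libraries. The passenger miR-3-5p had 3.84 to 9.66 CPM in dora and 4.38 to 18.5 CPM in WT embryos (log2 fold change -0.72, SE 0.49, edgeR adjusted p = 0.498). The log2 ratio of miR-309-3p to miR-309-5p was 4.59 and 4.12 in dora[A] and 6.09 and 3.16 in dora[B] embryos, against 2.57 and 1.82 in the WT embryos of dora[A] and 2.25 and 2.72 in those of dora[B] (change of 2.15, SE 0.54, limma adjusted p = 0.0724). It passed without dora[B] replicate 1 (1.57, limma adjusted p = 0.045) and without dora[B] replicate 2 (2.74, limma adjusted p = 0.00103). The hairpin of miR-3 was left out of the ratio test because its passenger averaged under 10 counts.

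The miR-310 cluster makes miRNAs that share the miR-92 seed, and the lncRNA CR43432 (named marge in the reference, at 3L:14976626-14977631) is their listed trigger. On dm6 the genes mir-310 to mir-313 lie on 2R between 20583752 and 20584260, inside no annotated host gene. The level of miR-310-3p was 4429 and 2614 CPM in dora[A] and 7655 and 9452 CPM in dora[B] embryos, against 1469.7 and 2195 CPM in the WT embryos of dora[A] and 1869.9 and 2355 CPM in those of dora[B] (log2 fold change 1.48, SE 0.27, edgeR adjusted p = 0.00827). The level of miR-311-3p was 5686 and 3334 CPM in dora[A] and 10515 and 8832 CPM in dora[B] embryos, against 1871 and 2423 CPM in the WT embryos of dora[A] and 2039 and 2576 CPM in those of dora[B] (log2 fold change 1.57, SE 0.25, edgeR adjusted p = 0.00492). In both, the dora[B] libraries were the highest and dora[A] replicate 2 the lowest of the dora libraries, nearest to the WT libraries. The level of miR-312-3p averaged 7638 ± 2803 CPM in dora and 3541 ± 195 CPM in WT embryos (SD, n = 4 each), with a log2 fold change of 1.05 (SE 0.21, edgeR adjusted p = 0.0115). The level of miR-313-3p averaged 844 ± 403 CPM in dora and 268 ± 13.4 CPM in WT embryos (SD, n = 4 each), with a log2 fold change of 1.55 (SE 0.32, edgeR adjusted p = 0.0138). The call of miR-312-3p was lost without WT of dora[B] replicate 2 (0.99, edgeR adjusted p = 0.0537). That of miR-313-3p was lost without dora[A] replicate 1 or without either WT library of dora[B] (1.41 each time, edgeR adjusted p = 0.0594, 0.0586 and 0.0719).

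Of 10 arms of the cluster tested, 5 rose and 0 fell, with a median of 1.04 against -0.01 over all arms tested. The fifth was miR-313-5p, the strand of mir-313 opposite to the one paired with the trigger, which averaged 808 ± 329 CPM in dora and 319 ± 69.2 CPM in WT embryos (SD, n = 4 each), with a log2 fold change of 1.26 (SE 0.23, edgeR adjusted p = 0.00827). The arms of mir-313 had nearly equal levels, and the ratio of miR-313-5p to miR-313-3p changed by -0.23 (SE 0.27, limma adjusted p = 0.829). The opposite strands of the other 3 hairpins gave 0.20 (SE 0.44) for miR-310-5p, 0.50 (SE 0.52) for miR-311-5p and 0.47 (SE 0.21, edgeR adjusted p = 0.32) for miR-312-5p. The arms miR-310-5p and miR-311-5p had at most 15.4 and 34.6 CPM, which limits their precision. The ratio of guide to passenger changed by 0.55 (SE 0.26, limma adjusted p = 0.475) for miR-312 and by 0.87 (SE 0.42, limma adjusted p = 0.475) for miR-311. The neighbouring miR-991-3p and miR-992-3p, at most 14.9 and 13.2 CPM, were not called.

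The genes of miR-92a and miR-92b lie within the span of jigr1, at 3R:25646506-25646600 and 3R:25651398-25651497, and their miRNAs are known in the fly brain as regulators of neural stem cells. The level of miR-92b-3p was 16408 and 9847 CPM in dora[A] and 19223 and 14754 CPM in dora[B] embryos, against 6332 and 6258 CPM in the WT embryos of dora[A] and 6614 and 8295 CPM in those of dora[B] (log2 fold change 1.12, SE 0.17, edgeR adjusted p = 0.0035). The level of miR-92a-3p was 18546 and 12577 CPM in dora[A] and 22808 and 18200.4 CPM in dora[B] embryos, against 9783 and 10098 CPM in the WT embryos of dora[A] and 10622 and 12054 CPM in those of dora[B] (log2 fold change 0.75, SE 0.14, edgeR adjusted p = 0.00827). Every dora library exceeded every WT library for both. The opposite strands did not pass, with -0.15 (SE 0.24) for miR-92b-5p and 0.44 (SE 0.16, edgeR adjusted p = 0.176) for miR-92a-5p. The mRNA of jigr1 stood at 248 and 113 CPM in dora[A] and 438 and 453 CPM in dora[B] embryos, against 163 and 187 CPM in the WT embryos of dora[A] and 166 and 188 CPM in those of dora[B] (log2 fold change 0.69, SE 0.32, edgeR adjusted p = 0.261). Without dora[A] replicate 2 it gave 1.02.

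**Figure D2:**
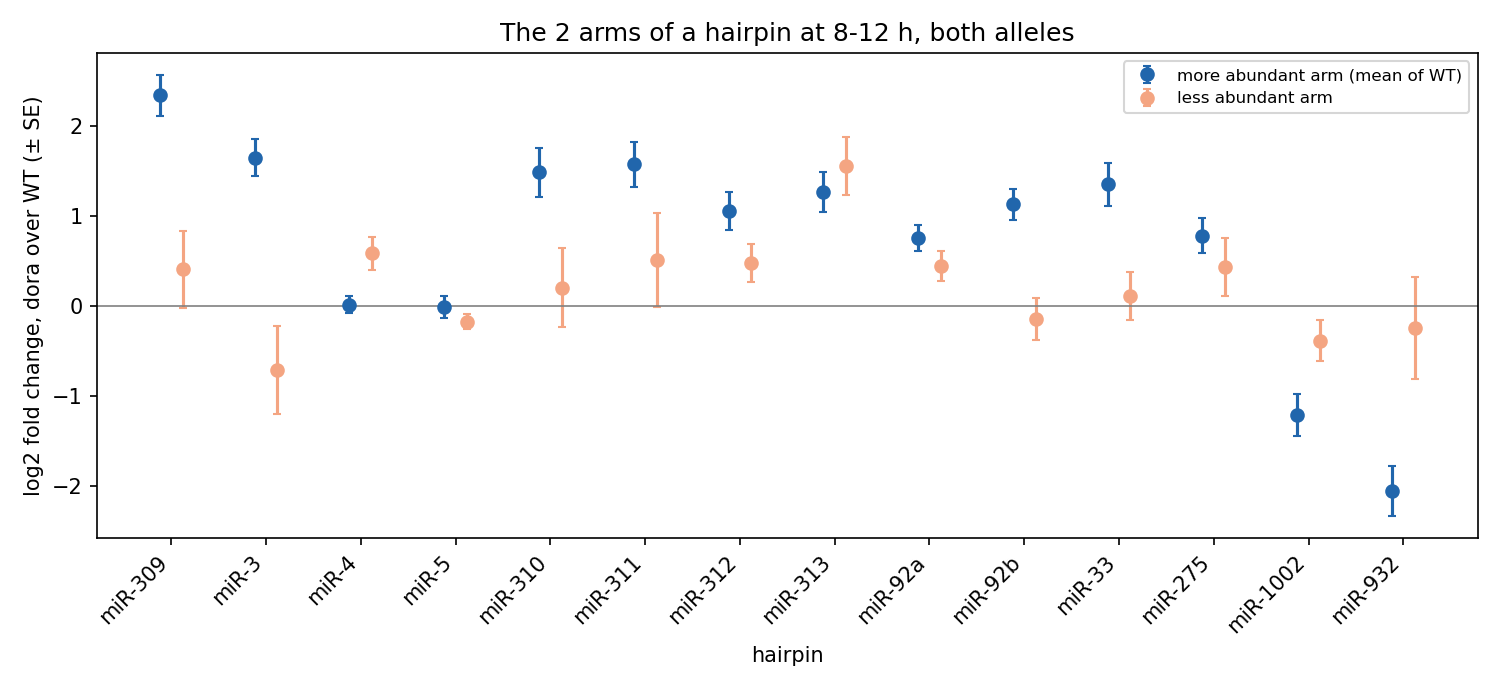
Log2 fold change of dora over WT at 8-12 h (points, with SE bars) for the arm of each hairpin with the higher mean level in WT embryos (blue) and for its other arm (orange). The more abundant arm of miR-309, miR-3, miR-310, miR-33 and miR-92b lies between 1.12 and 2.33 and the other arm between -0.72 and 0.40, whereas both arms of miR-313 lie above 1 and both arms of miR-4 and miR-5 lie within 0.58 of 0. For miR-311, miR-312, miR-92a and miR-275 the more abundant arm lies between 0.75 and 1.57 and the other arm between 0.43 and 0.50.

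The gene of miR-33, a regulator of lipid metabolism in animals, lies within SREBP, the gene of the sterol regulatory element binding protein, at 3L:19797961-19798059 on dm6. The level of miR-33-5p was 1459 and 1037 CPM in dora[A] and 2146 and 2859.6 CPM in dora[B] embryos, against 554 and 750.0 CPM in the WT embryos of dora[A] and 605 and 879 CPM in those of dora[B] (log2 fold change 1.35, SE 0.24, edgeR adjusted p = 0.00827). Its passenger miR-33-3p averaged 164 ± 68.6 CPM in dora and 152 ± 11.5 CPM in WT embryos (SD, n = 4 each), with a log2 fold change of 0.11 (SE 0.27, edgeR adjusted p = 0.822), and SREBP mRNA gave -0.20 (SE 0.20, edgeR adjusted p = 0.609). The guide strand thus rose while neither its partner strand nor the spanning mRNA passed.

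Of 68 hairpins with a passenger mean of at least 10 counts, the ratio of guide to passenger rose for 2 (2.94%) and fell for 0, with 5 at an unadjusted p under 0.05. The 2 hairpins were miR-33 and miR-92b. The log2 ratio of miR-33-5p to miR-33-3p was 3.35 and 2.97 in dora[A] and 4.20 and 3.43 in dora[B] embryos, against 1.78 and 2.25 in the WT embryos of dora[A] and 2.16 and 2.52 in those of dora[B] (change of 1.31, SE 0.26, limma adjusted p = 0.0262). That of miR-92b-3p to miR-92b-5p was 6.31 and 6.09 in dora[A] and 6.52 and 6.89 in dora[B] embryos, against 5.17 and 5.39 in the WT embryos of dora[A] and 4.76 and 5.45 in those of dora[B] (change of 1.26, SE 0.26, limma adjusted p = 0.0262). Without a call, the ratio also stood apart 4 against 4 for miR-309 and miR-278 (higher in dora) and for miR-1002 (lower). The share of the 68 hairpins that separate in this way was not counted. For miR-33 and miR-92b all 4 dora libraries were above all 4 WT libraries. Neither passed without dora[A] replicate 1, WT of dora[A] replicate 1, WT of dora[B] replicate 1 or WT of dora[B] replicate 2, when the count was 0 (4 to 7 hairpins at an unadjusted p under 0.05), and with the replicate pair as a block the count was 1, miR-92b.

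The gene of miR-1012 is a mirtron, a short intron processed without Drosha, in the lysosomal receptor gene Lerp at 3R:26861349-26861407. The level of miR-1012-3p was 795 and 751 CPM in dora[A] and 756 and 746 CPM in dora[B] embryos, against 339 and 447 CPM in the WT embryos of dora[A] and 254 and 314 CPM in those of dora[B] (log2 fold change 1.19, SE 0.18, edgeR adjusted p = 0.0035). The 4 dora libraries differed little among themselves, and all exceeded every WT library. Lerp mRNA stood at 17.7 and 14.0 CPM in dora[A] and 51.0 and 43.7 CPM in dora[B] embryos, against 9.25 and 9.20 CPM in the WT embryos of dora[A] and 12.2 and 7.30 CPM in those of dora[B] (log2 fold change 1.54, SE 0.32, edgeR adjusted p = 0.169). It passed with DESeq2 (1.49, adjusted p = 0.00101), where 583 of 10146 genes were called higher. It also passed without the filter (1.54, edgeR adjusted p = 0.0113), where 115 of 13903 genes were. The host transcript was thus also called higher under those settings, as were these other genes. Without dora[A] replicate 2 Lerp mRNA gave 1.78. The part of the host transcript in the level of miR-1012-3p was not tested.

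The remaining arms that rose were miR-275-3p and miR-986-5p. The gene of miR-275 lies at 2L:7425795-7425892, within 5 kb of miR-305. It lies inside the lncRNA gene CR43857, which averaged 0.58 CPM in dora and 0.02 CPM in WT embryos and was not tested. The level of miR-275-3p was 14139 and 9351 CPM in dora[A] and 21733 and 16792 CPM in dora[B] embryos, against 8711 and 9039 CPM in the WT embryos of dora[A] and 8011 and 9330.4 CPM in those of dora[B] (log2 fold change 0.78, SE 0.19, edgeR adjusted p = 0.037). Of the dora libraries, dora[A] replicate 2 was barely above the highest WT library, and the call was lost without dora[A] replicate 1, dora[B] replicate 1 or 2, or either WT library of dora[B] (log2 fold change 0.60 to 0.76, edgeR adjusted p = 0.0597 to 0.14). For miR-305-5p the fit gave 0.90 (SE 0.26, edgeR adjusted p = 0.0816), just outside the threshold. From within Cyp4e2 (2R:8444982-8445081), miR-986-5p stood at 220.5 and 305 CPM in dora[A] and 633 and 687 CPM in dora[B] embryos, against 187 and 169 CPM in the WT embryos of dora[A] and 367 and 289 CPM in those of dora[B] (log2 fold change 0.79, SE 0.19, edgeR adjusted p = 0.03). Its level differed between the allele sets more than between genotypes, and the call was lost without any 1 of the libraries except dora[A] replicate 1 (log2 fold change 0.68 to 0.83, edgeR adjusted p = 0.0695 to 0.146). The mRNA of Cyp4e2 gave 0.48 (SE 0.16, edgeR adjusted p = 0.169).

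In dora embryos 2 arms fell. From within the neuroligin gene Nlg2 (2L:6902062-6902152), miR-932-5p stood at 37.1 and 65.5 CPM in dora[A] and 61.4 and 49.2 CPM in dora[B] embryos, against 212 and 194 CPM in the WT embryos of dora[A] and 164 and 314 CPM in those of dora[B] (log2 fold change -2.06, SE 0.28, edgeR adjusted p = 0.00227). Every dora library was under 70 CPM and every WT library over 160 CPM. From within TM9SF4 (2L:13747609-13747697), miR-1002-5p stood at 2611 and 2137 CPM in dora[A] and 1259 and 1477 CPM in dora[B] embryos, against 4841 and 3048 CPM in the WT embryos of dora[A] and 4022 and 4882 CPM in those of dora[B] (log2 fold change -1.21, SE 0.24, edgeR adjusted p = 0.0106). Its opposite strand miR-1002-3p gave -0.39 (SE 0.23, edgeR adjusted p = 0.381), and the ratio of the arms changed by -0.78 (SE 0.27, limma adjusted p = 0.299). The mRNAs that span these genes, Nlg2 (0.05, SE 0.45, edgeR adjusted p = 0.966) and TM9SF4 (-0.19, SE 0.15, edgeR adjusted p = 0.479), were not called. Of the lncRNAs that also span mir-1002, CR45913 gave -0.88 (SE 0.53, edgeR adjusted p = 0.364) at 0.58 to 2.98 CPM, and CR44846 stood at 0 in all libraries.

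With all 8 libraries the miRNAs with a listed trigger outside the miR-310 cluster did not pass in edgeR. Of 9 arms with a listed trigger, 4 rose, the 4 of the miR-310 cluster, and 0 fell, with a median of 0.54. For miR-7-5p, whose listed trigger is hairy (hry), the level averaged 21495 ± 3463 CPM in dora and 17716 ± 2289 CPM in WT embryos (SD, n = 4 each), with a log2 fold change of 0.27 (SE 0.14, edgeR adjusted p = 0.342). For miR-12-5p, with the repressor gene zfh1 as trigger, the change was -0.12 (SE 0.10, edgeR adjusted p = 0.601). For miR-190-5p, with wgn as trigger (a gene of a tumour necrosis factor receptor), it was 0.01 (SE 0.12, edgeR adjusted p = 0.979). The level of miR-999-3p, with AGO1 as trigger, averaged 1315 ± 175 CPM in dora and 917 ± 78.8 CPM in WT embryos (SD, n = 4 each), with a log2 fold change of 0.51 (SE 0.14, edgeR adjusted p = 0.0642). The level of miR-9b-5p, with Kah as trigger, averaged 9386 ± 2506 CPM in dora and 6346 ± 578 CPM in WT embryos (SD, n = 4 each), with a log2 fold change of 0.54 (SE 0.15, edgeR adjusted p = 0.0707). The seed mate miR-9c-5p gave 0.50 (SE 0.14, edgeR adjusted p = 0.0767). All of miR-999-3p (0.48), miR-9c-5p (0.47) and miR-9b-5p (0.50) passed with DESeq2. In edgeR miR-9b-5p (0.60, adjusted p = 0.00957) and miR-9c-5p (0.57, adjusted p = 0.0101) passed without dora[A] replicate 2, and miR-999-3p passed in the fit over 24 libraries (0.46, adjusted p = 0.0291). The mRNA of grp, whose span holds mir-9b and mir-9c, gave 0.41 (SE 0.19, edgeR adjusted p = 0.24) with all 8 libraries. Without dora[A] replicate 2 it gave 0.57. The part of this transcript in the levels of miR-9b-5p and miR-9c-5p was not tested. The abundant seed mate miR-9a-5p averaged 67661 ± 4431 CPM in dora and 76838 ± 4443 CPM in WT embryos (SD, n = 4 each), with a log2 fold change of -0.18 (SE 0.07, edgeR adjusted p = 0.247). Of 10 arms of the miR-9 family tested, 0 were called, with 4 at an unadjusted p under 0.05 and 3 called by DESeq2. Of the 5 arms without a listed trigger that are higher in S2 cells lacking Dora, a list drawn from this series, miR-1012-3p rose. The others did not pass, with 0.47 for miR-277-3p, 0.33 for miR-996-3p and 0.15 for miR-279-3p beside miR-9c-5p.

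With all 8 libraries the triggers themselves were not called by edgeR in poly(A) RNA of the same genotypes and age. The log2 fold change of hairy was -0.30 (SE 0.17, edgeR adjusted p = 0.334), zfh1 -0.37 (SE 0.11, edgeR adjusted p = 0.169), and wgn -0.17 (SE 0.16, edgeR adjusted p = 0.567). Kah gave -0.42 (SE 0.21, edgeR adjusted p = 0.279), AGO1 -0.03 (SE 0.11, edgeR adjusted p = 0.916), and CR43432 -0.33 (SE 0.17, edgeR adjusted p = 0.291). Of these, zfh1 passed without dora[A] replicate 2 (-0.44, edgeR adjusted p = 0.0182). Dora itself stood at 519 and 585 CPM in dora[A] and 612 and 599 CPM in dora[B] embryos, against 634 and 758 CPM in the WT embryos of dora[A] and 728 and 851 CPM in those of dora[B] (log2 fold change -0.36, SE 0.11, edgeR adjusted p = 0.169). All 4 dora libraries were below all 4 WT libraries, but the share of all genes that separate in this way was not counted. Dora passed without dora[A] replicate 2 (-0.39, edgeR adjusted p = 0.0347), a fit that called 1776 of 10686 genes. The sources used here do not say which part of the gene an allele removes, so this level checks the labels only in part. Of 10146 genes tested, 0 rose and 7 fell (0.069%), with 2130 at an unadjusted p under 0.05. In each of the 7, which the test selected from these same libraries, all 4 dora libraries lay below all 4 WT libraries. The share of all genes that do so was not counted here either. CG18754 had 0.50 to 3.08 CPM in dora and 56.4 to 118 CPM in WT embryos, and CG15286 had 0 to 0.23 CPM and 18.8 to 56.1 CPM. The part of line background in these values was not tested. The small number of calls depended on 1 library: without dora[A] replicate 2, 1534 genes rose and 242 fell, with all 7 among those called. Without any other single library 2 to 7 were called (2 without either WT replicate 1, 4 and 3 without dora[B] replicate 1 and 2). DESeq2 called 681. Of the small RNA pathway genes, none passed with all 8 libraries in edgeR. AGO1, AGO2, Dcr-1, loqs, Hen1, Nbr, Cul3 and EloC did not pass without dora[A] replicate 2 either, and gave -0.26 to 0.38 with all 8 libraries. The other 7 were higher in dora without dora[A] replicate 2, a fit in which 1534 of all 10686 genes tested were higher. They were pasha (1.40), Tailor (1.21), Ranbp21 (1.04), Dcr-2 (0.79), r2d2 (0.76), EloB (0.63) and drosha (0.49), with edgeR adjusted p between 0.00198 and 0.0236. Among them pasha, the partner of Drosha, stood at 47.8 and 22.0 CPM in dora[A] and 75.2 and 83.4 CPM in dora[B] embryos, against 27.2 and 28.4 CPM in the WT embryos of dora[A] and 22.0 and 24.4 CPM in those of dora[B] (log2 fold change 1.05, SE 0.34, edgeR adjusted p = 0.169), a change that passed with DESeq2 (1.00, adjusted p = 0.0293). Ranbp21, which encodes Exportin-5, stood at 54.8 and 35.1 CPM in dora[A] and 112 and 118 CPM in dora[B] embryos, against 39.8 and 41.0 CPM in the WT embryos of dora[A] and 48.6 and 38.5 CPM in those of dora[B] (log2 fold change 0.78, SE 0.27, edgeR adjusted p = 0.172). For both genes dora[A] replicate 2 lay at or below the level of WT embryos and the dora[B] libraries were the highest. Some raised arms had the same order among the dora libraries, such as miR-310-3p, for which dora[A] replicate 2 was however above all WT libraries. Others did not. Both mRNAs were highest in dora[B] replicate 2. For miR-309-3p, miR-3-3p, miR-311-3p, miR-92a-3p, miR-92b-3p and miR-275-3p the highest library was dora[B] replicate 1, and for miR-1012-3p it was dora[A] replicate 1. The part of the mRNA order in the miRNA values was not tested.

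The 2 alleles were then compared through the difference of their effects. Against its own controls, dora[A] alone gave 1 call (0.495% of arms, 15 at an unadjusted p under 0.05), miR-309-3p (2.21, edgeR adjusted p = 0.02), and dora[B] alone gave 15 (7.43%), 13 higher and 2 lower, of which 14 were also called over both alleles. No arm of 202 passed the test of the difference (0 with edgeR, 8 at an unadjusted p under 0.05, 0 with DESeq2), so the unequal counts do not show that the alleles differ. All 15 arms called over both alleles had the same sign in each, and the effect was larger in size in dora[B] for all 15, as for 141 of the 202 arms tested. For miR-310-3p the effect was 0.94 in dora[A] and 2.02 in dora[B] (difference 1.07, 95% interval 0.13 to 2.02). For miR-312-3p it was 0.61 in dora[A] and 1.48 in dora[B] (difference 0.87, 95% interval 0.15 to 1.58). For miR-309-3p the effect was 2.21 in dora[A] and 2.46 in dora[B] (difference 0.26, 95% interval -0.76 to 1.27). For miR-92b-3p it was 1.06 in dora[A] and 1.19 in dora[B] (difference 0.13, 95% interval -0.66 to 0.91). For miR-1002-5p the fit gave -0.73 in dora[A] and -1.70 in dora[B] (difference -0.97, 95% interval -1.78 to -0.16). For 6 of the 15 arms the unadjusted 95% interval lay to one side of 0. Without either WT library of dora[B] the dora[B] count was 7. The dora[A] count was 0 without either of its own WT libraries, 7 without dora[A] replicate 1, 9 without dora[A] replicate 2, and 2 without WT of dora[B] replicate 1 or without dora[B] replicate 1 or 2.

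**Figure D3:**
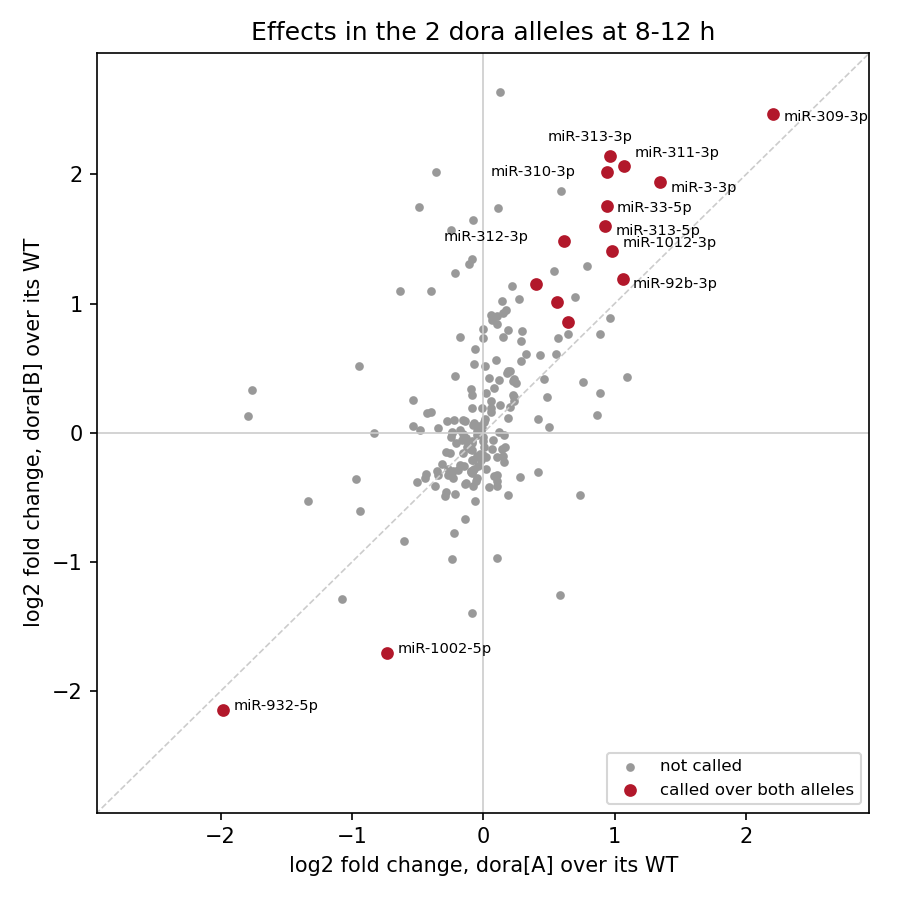
Log2 fold change of dora[B] over its WT (vertical axis) against that of dora[A] over its WT (horizontal axis) for the 202 arms tested at 8-12 h, with the 15 arms called over both alleles in red and equal effects on the dashed line. All 15 red points share a sign in both alleles and lie farther from 0 on the dora[B] axis.

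Within the alleles, 1 pair of libraries stood out. For 12 of the 13 raised arms the smallest ratio of a dora library to the WT library of the same number was that of dora[A] replicate 2, where the median log2 ratio was 0.46. It was 1.38 for dora[A] replicate 1, 1.83 for dora[B] replicate 1 and 1.37 for dora[B] replicate 2. Leaving out any 1 of the 8 libraries gave 11 to 16 calls over both alleles, with 2 lower arms each time. Leaving out dora[B] replicate 1, the shallowest library, together with its WT left 3 calls, miR-309-3p, miR-3-3p and miR-932-5p (chosen after seeing the data, and with 3 libraries per genotype).

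The effect at 8-12 h was compared with that at 12-16 h and 16-20 h in a fit over 24 libraries of the same alleles (231 arms tested). That fit called 22 arms at 8-12 h (9.52%), 47 at 12-16 h (20.3%) and 51 at 16-20 h (22.1%), and all 13 arms that rose at 8-12 h were also called higher at both later windows. Their increases were mostly larger later. For miR-309-3p the effect was 2.28 at 8-12 h, 4.62 at 12-16 h and 5.75 at 16-20 h (8-12 h minus the mean of the later windows -2.91, SE 0.34, edgeR adjusted p = 1.38e-05). Its mean level at these ages was 3224, 991 and 810.1 CPM in dora[A] and 5235, 2602 and 1341 CPM in dora[B] embryos, against 723, 64.5 and 16.0 CPM in the WT embryos of dora[A] and 990.3, 65.5 and 23.3 CPM in those of dora[B]. The level was lower at each later age in both genotypes, and as a fold the decrease was smaller in dora than in WT embryos. For miR-3-3p the effect was 1.59 at 8-12 h, 3.77 at 12-16 h and 4.89 at 16-20 h (the same difference -2.74, SE 0.26, edgeR adjusted p = 1.34e-06). For miR-310-3p the effect was 1.43 at 8-12 h, 3.28 at 12-16 h and 3.18 at 16-20 h, and for miR-275-3p it was 0.72 at 8-12 h, 2.07 at 12-16 h and 2.69 at 16-20 h. For miR-33-5p the fit gave 1.29 at 8-12 h, 1.04 at 12-16 h and 0.70 at 16-20 h, miR-1012-3p 1.14 at 8-12 h, 0.85 at 12-16 h and 0.79 at 16-20 h and miR-986-5p 0.72 at 8-12 h, 0.99 at 12-16 h and 0.58 at 16-20 h, with no difference that passed the test. The effects of the lower arms were smaller in size later. For miR-932-5p the effect was -2.12 at 8-12 h, -0.83 at 12-16 h and -0.29 at 16-20 h (the same difference -1.57, SE 0.33, edgeR adjusted p = 0.00376). For miR-1002-5p it was -1.28 at 8-12 h, -0.89 at 12-16 h and -0.47 at 16-20 h, with no difference that passed the test.

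**Figure D4:**
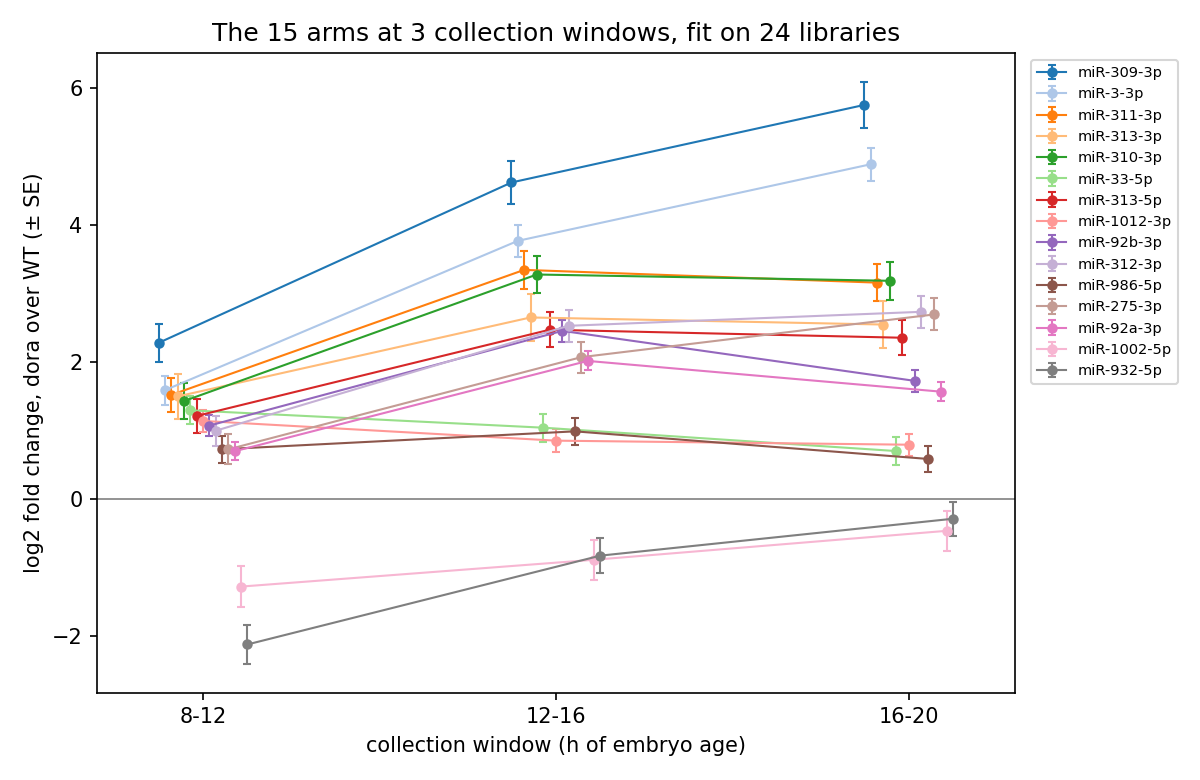
Log2 fold change of dora over WT (points, with SE bars) at the 3 collection windows for the 15 arms called at 8-12 h, from the fit over 24 libraries of both alleles. miR-309-3p and miR-3-3p rise from 2.28 and 1.59 at 8-12 h to 5.75 and 4.89 at 16-20 h, while miR-33-5p, miR-1012-3p and miR-986-5p stay between 0.58 and 1.29.

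Of 231 arms, 21 differed between 8-12 h and the later windows (9.09%), 14 with a more negative and 7 with a more positive effect at 8-12 h. The split depended on scaling, with 14 more positive and 12 more negative under RLE scaling and 24 and 12 with DESeq2. The count was 32 arms without dora[A] replicate 1 and 13 without dora[A] replicate 2. With the replicate pair as a block it was 32, with 12 more positive and 20 more negative.

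Because many miRNAs change with age, the raised arms were set beside the change from 8-12 h to 12-16 h in WT embryos of the CR43432 set, which the dora comparison does not use. Of the 13 raised arms, 10 fell with age in those embryos. Among 34 tested arms that fell there by at least 1 on the log2 scale, 10 rose in dora, against 6.44% of all arms tested, and the median log2 fold change of dora over WT was 0.11. Among 43 arms that rose by at least 1, 1 was called and the median was 0.32. Across 201 arms Pearson's r between the dora effect and the change with age was 0.01, and -0.12 over the 155 arms with a mean of 50 CPM or more, where the points share libraries and depth. Markers of tissues that mature later did not pass. The muscle miRNAs miR-1-3p and miR-133-3p (0 of 2 called) summed to 30467 to 48303 CPM in dora and 38803 to 47986 CPM in WT embryos. The neuronal miR-124-3p (0 of 1) had 21588 to 30716 CPM in dora and 24687 to 31431 CPM in WT embryos. The sensory organ miRNAs miR-263a-5p and miR-263b-5p (0 of 2) summed to 12861 to 15522 CPM in dora and 14070 to 15468 CPM in WT embryos. Of the testis clusters (0 of 8 tested arms called) the 28 arms summed to at most 395 CPM in dora and 256 CPM in WT embryos, with 5 of them at 0 in all libraries. The let-7 complex (0 of 1 tested) summed to at most 107 CPM in dora and 163 CPM in WT embryos. None of these lists had an arm at an unadjusted p under 0.05 or a DESeq2 call. The log2 fold change was -0.13 for miR-1-3p, 0.66 (SE 0.37) for miR-133-3p and -0.11 for miR-124-3p. The median was -0.05 for the sensory organ miRNAs, 0.47 for the testis clusters and -0.49 for the let-7 complex. The K-box family (0 of 19, 3 at an unadjusted p under 0.05, 0 with DESeq2) and the Hox cluster miRNAs (0 of 8, 0 at an unadjusted p under 0.05, 0 with DESeq2) had medians of -0.14 and -0.04.

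A separate set of 4 libraries compared CR43432 mutant embryos with WT embryos at 8-12 h (2 each), with the spread estimated over all ages of that set from 2-4 h on. Of 230 arms tested, 2 rose (0.87%) and 0 fell, with 11 at an unadjusted p under 0.05 and 2 called by DESeq2. The larger increase was that of miR-313-3p, at 698 and 799.6 CPM in CR43432 mutant embryos, against 199.6 and 264 CPM in their WT embryos (log2 fold change 1.69, SE 0.20, edgeR adjusted p = 0.000111). The other was that of miR-311-3p, at 4664 and 4609.7 CPM in CR43432 mutant embryos, against 1473 and 1804 CPM in their WT embryos (log2 fold change 1.50, SE 0.20, edgeR adjusted p = 0.000221). The dora effects of these arms were 1.55 for miR-313-3p and 1.57 for miR-311-3p. For miR-310-3p the fit gave 1.48 in dora and 0.73 (SE 0.31, edgeR adjusted p = 0.735) in the CR43432 mutant. For miR-312-3p the values were 1.05 in dora and 0.32 (SE 0.20, edgeR adjusted p = 0.997) in the CR43432 mutant. The arm miR-313-5p, which rose in dora (1.26), gave 0.14 (SE 0.18, edgeR adjusted p = 0.997) in the CR43432 mutant. Of the seed mates, miR-92b-3p gave 1.12 in dora and 0.33 (SE 0.13, edgeR adjusted p = 0.581) in the CR43432 mutant. For miR-92a-3p the values were 0.75 in dora and 0.28 (SE 0.15, edgeR adjusted p = 0.997) in the CR43432 mutant. The miR-309 cluster arms miR-309-3p and miR-3-3p gave 0.05 (SE 0.54) and 0.07 (SE 0.44) in the CR43432 mutant. The arm miR-932-5p, lower in dora, gave 1.09 (SE 0.28, edgeR adjusted p = 0.122) in the CR43432 mutant. The difference between the mutants was not tested, since the sets differ in controls and lines.

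**Figure D5:**
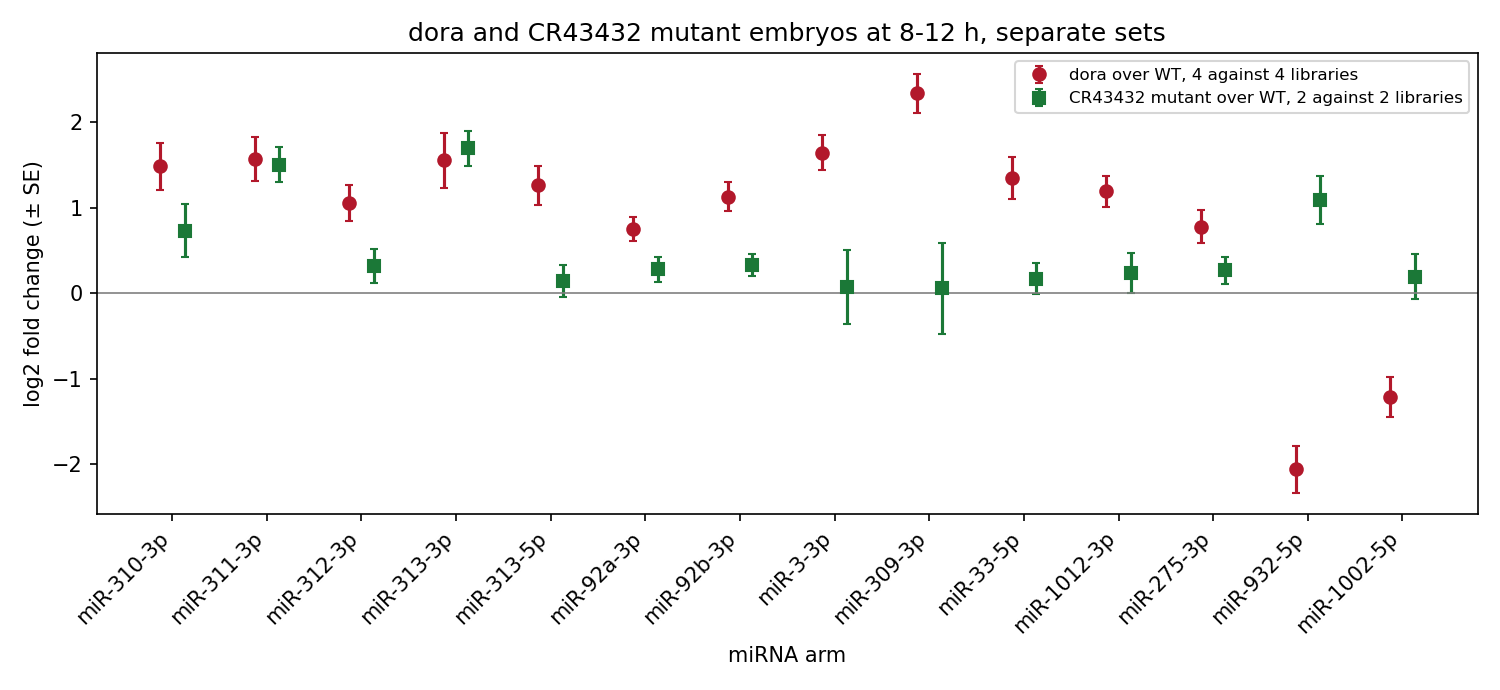
Log2 fold change (points, with SE bars) at 8-12 h of the called arms other than miR-986-5p in dora over WT embryos (red, 4 against 4 libraries) and in CR43432 mutant over WT embryos (green, 2 against 2 libraries of another set). miR-311-3p and miR-313-3p lie between 1.50 and 1.69 in both, while miR-309-3p and miR-3-3p are at 2.33 and 1.64 in dora and 0.05 and 0.07 in the CR43432 mutant.

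In S2 cells, a line of embryonic origin compared as clonal lines with and without Dora, 4 of the 15 arms had a mean of 50 CPM or more in either genotype, and 3 of these were higher in all 3 dora than in all 3 WT libraries. They were miR-1012-3p (808 CPM in dora and 76.8 CPM in WT cells), miR-275-3p (13478 CPM in dora and 7048 CPM in WT cells) and miR-1002-5p (93.7 CPM in dora and 38.0 CPM in WT cells), the last of which was lower in dora embryos. Of the 82 arms at that level in S2 cells, 46.3% did not overlap between genotypes. The other arm, miR-33-5p, overlapped, at 18038 CPM in dora and 17874 CPM in WT cells.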

How the data were processed

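Small RNA and poly(A) RNA libraries of embryos were analysed from raw counts per miRNA arm or per gene, as deposited by the authors. STAR 2.4 is named in the submitters' processing notes; the counting settings, strand use and read filters were not given in the sources used here. Adapters carried random bases at their ligation junctions, per the labels' protocols, but whether duplicates were collapsed is not given. The added standards, size markers and, for mRNA, counts assigned to no gene (11.2% to 14.8%) were left out of library sizes; the poly(A) libraries held 9.71 to 24.7 M gene counts.

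TMM scaling, filtering by expression and edgeR's robust quasi-likelihood test (edgeR 4.0.16, R 4.3.3) were used, with limma 3.58.1 on log2((guide + 0.5)/(passenger + 0.5)) for hairpins whose passenger averaged 10 counts or more, and DESeq2 1.42.0 as an alternative. Other alternatives were RLE scaling, scaling to the standards (which assumes 1 ratio of total RNA to standards per allele set), no filter, a replicate block, other sets of libraries, and each library left out in turn. The steps were tested on simulated data. Intervals cover the spread between libraries.

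The labels call the WT samples paired. Within a set, same-numbered small RNA libraries deviated together from their group means (r = 0.42 for dora[A] and 0.41 for dora[B], over 150 arms). Those of different sets also did (r = 0.28 to 0.39), so these values do not show that a dora library is matched to its own WT library. The main fits held no replicate pair, which was a block in alternatives only. With 2 libraries a group the deviations mirror each other. Same-numbered poly(A) libraries did not deviate together within a set (r = -0.14 and -0.08). No 2 libraries of a group agreed within sampling noise.

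Named arms were the called ones with at least 50 CPM whose libraries did not overlap within each allele set (the 12 largest increases and the 8 largest decreases), with listed triggers' miRNAs, seed mates, opposite arms, the 10 most abundant arms and the 4 smallest p of each list and contrast. Other arms of the miR-309 and miR-310 clusters (miR-5-3p, miR-5-5p, miR-991-3p, miR-992-3p) and miR-305-5p were added after their values were seen. The arms and lists were chosen with earlier results of these data known. Gene positions are those of RefSeq's Release 6 plus ISO1 MT annotation (dm6), which placed 303 of the 310 arms.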

Additional observations from a re-analysis of the deposited data

Results flagged for a closer look

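For 21 of 231 arms the dora effect at 8-12 h differed from the mean effect at 12-16 h and 16-20 h (edgeR adjusted p under 0.05 in the fit over 24 libraries). Of these, 14 had a more negative difference (8-12 h minus later), 9 of which are arms that rose at 8-12 h and rose further later. The differences in log2 fold change were -2.91 for miR-309-3p and -2.74 for miR-3-3p, -1.80 for miR-310-3p, -1.73 for miR-311-3p, -1.63 for miR-312-3p and -1.20 for miR-313-5p, -1.66 for miR-275-3p, and -1.09 and -1.02 for miR-92a-3p and miR-92b-3p. miR-932-5p differed by -1.57, being lower in dora at 8-12 h (-2.12) and nearer to WT later (mean -0.56).

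The other 4 negative differences were of arms with an effect between -0.05 and 0.22 at 8-12 h and a positive mean effect later, with -0.73 for miR-995-3p, -0.64 for miR-7-5p, -0.51 for miR-4-3p and -0.46 for miR-998-3p. miR-7-5p, which has hairy as listed trigger, thus had an effect of 0.22 at 8-12 h and a later mean of 0.86.

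A positive difference was found for 7 arms, all with a later mean effect below 0. These were 0.28 for bantam-3p, 0.59 for miR-281-3p, 0.70 for miR-87-3p, 0.72 for miR-31b-5p, 1.20 for miR-87-5p, 1.23 for miR-927-5p and 1.32 for the muscle miRNA miR-133-3p, whose effect was 0.62 at 8-12 h and -0.70 on average later. The part of unequal embryo ages between genotypes in these differences was not tested. Groups of 2 libraries are too small for a search for single outlying samples.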

How the results depend on the processing

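Over both alleles the 15 calls became 25 with DESeq2 (21 higher, 4 lower), 0 when scaled to the standards, 3 without dora[B] replicate 1 and its WT (added after seeing the data), 14 with standards and the replicate pair together (also added), and 11 to 16 with any 1 library left out, which leaves a group with 1 library that is assumed to vary like the others. RLE scaling and no filter gave 15, no allele block 13, all 24 libraries 22, and the replicate block 15, of which 14 were shared, miR-275-3p being lost (edgeR adjusted p = 0.0571). Under standards scaling the median log2 fold change over all arms shifted to -0.26 and the adjusted p of all 15 was 0.99, while each kept its sign.

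For dora[A] alone the 1 call became 8 with DESeq2, 3 with RLE, 0 with standards, 5 with no filter, 2 with the replicate block, 4 in a fit on its 12 libraries, and 0 to 9 with 1 library left out. For dora[B] alone the 15 became 0 with standards, 18 with the replicate block and 7 to 22 with 1 library left out. The 0 calls between alleles stayed 0 in every alternative run. The 21 arms that differed from later windows (7 more positive, 14 more negative) became 36 with DESeq2 (24 and 12), 32 with the replicate block (12 and 20), 26 with RLE (14 and 12), 20 with no filter (8 and 12) and 13 to 32 with 1 library left out. The 2 arm ratios became 0 with a passenger minimum of 1 (9 hairpins at an unadjusted p under 0.05), 1 with the replicate block and 0 to 3 with 1 library left out. The 7 mRNA calls became 681 with DESeq2 (4 shared), 142 with no filter, 1 with the replicate block and 2 to 1776 with 1 library left out. CR43432 gave 2 in all alternatives run. The causes were not tested.

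Of the values of named arms under alternatives, 1076 kept their side of the threshold, 49 lost it, 9 gained it and 0 reversed. miR-309-3p, miR-3-3p and miR-932-5p passed in every alternative except standards scaling. Depth limits arms under about 30 CPM, such as miR-310-5p, miR-311-5p and miR-3-5p.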
